A study of Mus musculus with 113 samples.

Results

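A set of 9 genes of RNA sensing and of the interferon response was followed in mouse preimplantation embryos that had been injected with siRNA, guide RNA or editor mRNA. They were 9 of the 24006 genes in the tables. They were listed by name, and the list was made with earlier results of these data known. The set holds Ddx58, Ifih1, Tlr3 and Eif2ak2, which bind double-stranded RNA, the transcription factor Irf7, and Isg15, Ifit1, Ifit3 and Oas1a, which interferon induces. The study asked which nuclear receptors act on the first transcription programs of the embryo, and lowered Nr5a2, Rarg, Nr1h3 and Nr2c2 by siRNA injection or targeted Nr5a2 with a cytosine base editor (BE). RNA was measured in 92 Smart-seq2 libraries of 22 groups, as FPKM (fragments per kilobase of transcript, scaled to the mapped fragments of the library), a unit in which levels of different genes can be compared. In 32 libraries, 2 per group, RNA came from pools of embryos. The other 60 libraries were single embryos.

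All embryos carried the wild type genotype in the labels and, by the methods, came from C57BL/6N females mated with PWK/PhJ males. The 4KD groups at the 4-cell (4C) and 8-cell (8C) stages had received siRNAs to all 4 receptors at 5 µM for each gene, with negative control (NC) siRNA at 20 µM in their controls. The 3KD groups at 8C received siRNAs to 3 of the 4 receptors at 5 µM each, against NC at 15 µM, and the single KD groups at 8C received siRNA to 1 receptor at 5 µM, against NC at 5 µM. At the 2-cell (2C) stage, Nr5a2 siRNA at 20 µM was set against NC at 20 µM. These doses are those of the labels. Single embryos at 2C and 8C had received BE mRNA at 100 ng/µl (8 per stage), an Nr5a2 sgRNA at 100 ng/µl (8 per stage) or both (14 per stage). Each group had therefore received an RNA, and no uninjected embryo was among the 92 libraries, so the comparisons set one injected RNA against another.

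Cells read foreign RNA through the helicases RIG-I, the product of Ddx58, which binds base-paired RNA ends that carry a triphosphate, and MDA5, the product of Ifih1, which binds long double-stranded RNA, through TLR3 in endosomes and through the kinase PKR, the product of Eif2ak2, which halts translation. The helicases and TLR3 lead to IRF3 and IRF7, which switch on type I interferon, and interferon acts on promoters that carry an interferon-stimulated response element. Mouse oocytes and early embryos are known for a weak interferon response, and they keep a pathway in which Dicer and Argonaute proteins process double-stranded RNA.

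The promoters of 3 members are shown because they span the cases met below, a gene with a match to the element that was measured at 2C (Isg15), a gene with a match that was listed at or near 0 (Ifit1) and a gene with no match in this window that had the highest level of the members (Irf7). The sequences are the 250 bases before the annotated start in the RefSeq table (GRCm38.p6), 5′ to 3′ on the strand of the gene, at chr4:156200819-156201068 (minus strand), chr19:34640639-34640888 (plus strand) and chr7:141266425-141266674 (minus strand). Capitals mark matches on either strand to the core letters of the element, GAAA, any 2 bases and GAAA again, and neighbouring matches in Isg15 overlap.
Isg15: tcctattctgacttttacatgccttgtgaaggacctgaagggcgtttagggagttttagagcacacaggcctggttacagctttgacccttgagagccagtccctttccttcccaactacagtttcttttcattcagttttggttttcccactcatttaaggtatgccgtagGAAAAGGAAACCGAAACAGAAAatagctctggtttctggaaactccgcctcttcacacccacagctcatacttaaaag
Ifit1: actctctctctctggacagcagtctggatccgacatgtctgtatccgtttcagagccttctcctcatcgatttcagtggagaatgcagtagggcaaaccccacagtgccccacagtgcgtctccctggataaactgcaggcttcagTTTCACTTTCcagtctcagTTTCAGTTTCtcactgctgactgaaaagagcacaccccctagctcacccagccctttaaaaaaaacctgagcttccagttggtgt
Irf7: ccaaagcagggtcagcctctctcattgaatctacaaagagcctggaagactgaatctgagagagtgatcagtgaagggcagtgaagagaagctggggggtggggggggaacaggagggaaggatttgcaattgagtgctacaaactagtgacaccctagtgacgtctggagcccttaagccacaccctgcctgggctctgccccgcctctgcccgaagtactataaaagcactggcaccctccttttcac
All 9 members matched the table. The letters were found in 4 of them, with 3 matches in Isg15 and 2 each in Ifit1, Ifit3 and Oas1a, and in none of the windows of Ifih1, Ddx58, Tlr3, Eif2ak2 and Irf7. Of all 32851 promoters of the table, 2.98% held a match. A match is a run of letters and was not tested as a site.

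The FPKM of a library added up to 83392 to 556462, and the number of genes at 1 FPKM or more was 5472 to 11921. The values used here are FPKM without counts, so the depth is unknown, but the spacing of low values placed the libraries between 0.363 and 1.52 times the median depth. The siRNA targets were lower than their controls in mean in 25 of 25 pairs of target and group, at 1.89% to 48.6% of the control. Summed over 10 embryo markers, the libraries reached 328 to 9272 FPKM. The 6 immune cell markers summed to at most 20.8 FPKM. The defining leukocyte genes Ptprc and Tyrobp were listed at 0 in all libraries, Csf1r and Cd14 had no group mean above 0.0757 and 0.798 FPKM, Lyz2 reached a group mean of 4.56 FPKM (2C BE), and Cd68, a lysosomal protein gene, was above 0 in 74 libraries with a highest group mean of 13.9 FPKM (8C 3KD without Rarg siRNA). The 8 cumulus and oviduct markers summed to 0.180 to 55.4 FPKM at 2C and to at most 3.28 FPKM at 8C. A 4-cell name was found in the column header of 3 libraries although their label gives another stage (2C sgRNA replicate 8, 8C BE+sgRNA replicates 13 and 14) and the values without them are given beside the results that they change. Gapdh was listed at 0 in 1 library (8C BE+sgRNA replicate 8), so a value of 0 is reported as listed and not as absence.

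Most members were at the floor of the measurement. Ifit3 was above 0 in 1 of 92 libraries (0.309 FPKM in 8C sgRNA replicate 7) and Ifit1 in 5 of 92, all of them single 2C embryos, with a highest value of 0.276 FPKM. Ifit1 and Ifit3 encode proteins that bind foreign RNA and rank among the strongest interferon targets, and both have close relatives next to them on chromosome 19, so that reads can be shared within the family. Ifih1 was above 0 in 32 libraries with a highest value of 1.35 FPKM (8C Rarg KD replicate 1), and Eif2ak2 in 41 libraries with a highest value of 1.25 FPKM (2C sgRNA replicate 4). Oas1a, which makes the 2-5A messenger that activates RNase L and which shares sequence with the other Oas1 genes, was above 0 in 51 libraries and reached 1.91 FPKM (2C BE replicate 1). These 5 genes stayed at or below 1.91 FPKM after each of the injections.

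Higher values were reached by 4 members. Tlr3 was above 0 in 37 libraries and reached 5.32 FPKM, Ddx58 was above 0 in 86 libraries and reached 7.55 FPKM, Isg15 was above 0 in 24 libraries and reached 19.7 FPKM, and Irf7 was above 0 in 67 libraries and reached 26.9 FPKM. All 4 maxima were in 2C libraries. In the mm9 annotation Tlr3 lies on chromosome 8 from 46481019 to 46495962, Ddx58 on chromosome 4 from 40150806 to 40186861, Isg15 on chromosome 4 from 155573533 to 155574927 and Irf7 on chromosome 7 from 148448605 to 148452380, all on the minus strand. Irf7 overlaps Phrf1 on the other strand by 45 bases. Phrf1 had a median of 9.05 FPKM in the single control embryos at 2C and 9.82 FPKM at 8C. Without a statement on strand, reads in those bases cannot be assigned to one of the 2 genes.

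**Figure D1:**
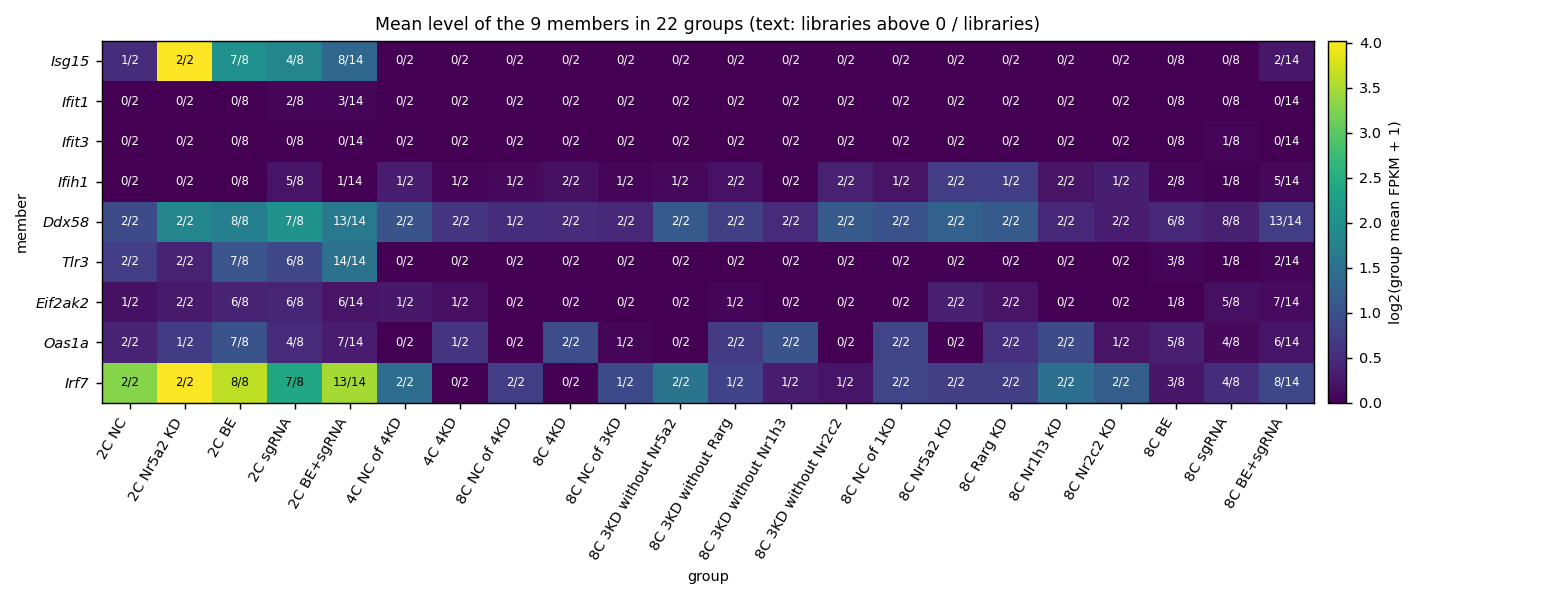
Heat map of the 9 members (rows) in the 22 groups (columns, ordered by stage), with colour for log2(group mean FPKM + 1) and text for the libraries above 0 out of all libraries of the group. Irf7, Isg15 and Tlr3 are brightest in the 5 groups at 2C, and Ifit1 and Ifit3 are near 0 in each group.

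The clearest difference among the members was between stages. In the 16 single control embryos at 2C (BE or sgRNA), Irf7 had a lowest value of 0, a median of 5.32 and a highest value of 23.1 FPKM, against 0, 0 and 1.54 FPKM in the 16 at 8C. Isg15, a small protein that is attached to other proteins in interferon-treated cells, had a median of 1.24 and a highest value of 15.5 FPKM at 2C and was listed at 0 in all 16 embryos at 8C. Ddx58 had a median of 2.24 and a highest value of 7.55 FPKM at 2C against 0.165 and 1.21 FPKM at 8C. Tlr3 had a median of 0.945 FPKM at 2C with 13 of 16 embryos above 0, and at 8C 4 of 16 embryos were above 0 with a highest value of 0.139 FPKM. For Oas1a the medians were 0.464 and 0.0847 FPKM. The values of the 2 stages overlapped for each of these genes, since each had at least 1 embryo at 0 at 2C.

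The 16 control embryos of each stage were compared within a limma fit of all 60 single embryos on log2(FPKM + 1). There, 5 of 5 members with a mean of at least 1 FPKM in a group were lower at 8C than at 2C at an adjusted p under 0.05. In this comparison 72.5% of the 12991 genes tested were called, with 43.6% of those tested lower and 28.9% higher at 8C, and the 5 members passed the filter on low values through their 2C groups, so the count cannot be set against that background. The difference, 8C minus 2C, was -2.25 (SE 0.35) for Irf7 with an adjusted p of 1.01e-07, -1.31 (SE 0.25) for Ddx58 with 7.91e-06, -0.82 (SE 0.17) for Tlr3 with 1.76e-05 and -0.46 (SE 0.15) for Oas1a with 0.00509. Isg15 had an adjusted p of 0.000122, and no fold is given because it was listed at 0 in the 8C controls. The median over all genes was -0.31. Differences on this scale are smaller than those of the FPKM themselves where a gene is low, and fewer cells with a transcript cannot be told apart from less of it per cell. Quantile normalization moved the median of all genes to -0.01 and turned the Oas1a difference to 0.01 (adjusted p 0.956), while Tlr3 was then at -0.38 with an adjusted p of 0.0507, so that 3 members were called. Median-ratio scaling moved that median to -0.49 and left 5 members called. Without the sgRNA library with a 4-cell name, 5 members were still called, with Irf7 at -2.35. Without a filter on low values, Eif2ak2 was also lower at 8C (medians 0.253 and 0 FPKM, difference -0.29, adjusted p 0.00514), and Ifit1, Ifit3 and Ifih1 were not called (adjusted p 0.335, 0.288 and 0.0907). Cumulus and oviduct markers moved the same way, with 4 of the 5 tested lower at 8C. Among them, Cyp11a1 was at 27.2 FPKM in 1 embryo (2C BE replicate 5). Of the 2 immune cell markers tested, Lyz2 was also lower at 8C (adjusted p 9.58e-07). Its mean was 3.58 FPKM at 2C, and it was listed at 0 in all 16 embryos at 8C. The other, Cd68, went the opposite way, with a higher mean at 8C, and was not called. The part of these markers in the members' difference was not tested. In that embryo with Cyp11a1 Isg15 was at 0.867 FPKM and Irf7 at 4.71 FPKM.

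The pools gave higher values of Irf7 and Tlr3 at 2C than later. Irf7 was at 8.40 to 21.6 FPKM in the 4 pools at 2C, at 0 to 3.15 FPKM in the 4 pools at 4C and at 0 to 3.29 FPKM in the 24 pools at 8C. Tlr3 was at 0.0727 to 0.820 FPKM in the 2C pools, and Isg15 and Tlr3 were listed at 0 in all 28 pools at 4C and 8C. The 2C pools belong to another experiment than those at 4C and 8C, and no test was made across them. Within the 4KD experiment, 0 of 2 members tested were called between the NC pools at 8C and at 4C in limma, where 0% of 10476 genes were called and 776 had an unadjusted p under 0.05. Ddx58 was at 0 and 0.870 FPKM at 8C against 0.717 and 1.40 FPKM at 4C (difference -0.57, SE 0.47, adjusted p 0.820). Irf7 was at 1.04 and 0.338 FPKM at 8C against 0.277 and 3.15 FPKM at 4C (difference -0.48, SE 0.58, adjusted p 0.891). Neither of these 2 members had an unadjusted p under 0.05, and the pools of the 2 stages overlapped for both.

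The siRNA comparisons asked whether receptor siRNAs went with other levels of the members than NC siRNA. In 11 comparisons of KD with NC pools, 27 tests of members were made in limma, 0 passed an adjusted p of 0.05 and 1 had an unadjusted p under 0.05. That 1 was Isg15 in 2C Nr5a2 KD, where 558 of 11958 genes had an unadjusted p under 0.05. The share of all genes called was also low. At 4C 4KD and 8C 4KD, 0% of the genes tested were called. Among the 3KD groups the share was 0% where Nr5a2 siRNA was left out, 0.0565% where Rarg, 0.00941% where Nr1h3 and 0% where Nr2c2 siRNA was left out. With the replicate number as a block (same-numbered 3KD pools deviated together, with correlations of 0.30 to 0.54), the genes called went from 6 to 45, from 1 to 35 and from 0 to 65 in the last 3 of these groups and stayed at 0 in the first, and 0 members were called. Among the single KD groups at 8C it was 2.75% after Nr5a2 siRNA, 0.00984% after Rarg siRNA, 0.00984% after Nr1h3 siRNA and 0.0787% after Nr2c2 siRNA. The 2.75% after Nr5a2 siRNA, 279 genes, depended on the pools in the fit. With only the KD and NC groups in the fit, 337 of 9400 genes were called. The share fell without either NC pool or without KD replicate 2, and did not fall without KD replicate 1. At 2C it was 0.0167% after Nr5a2 siRNA, and 0 genes were called with any 1 of the 4 pools left out. With 2 pools per group, a missed threshold does not show that levels were alike.

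At 4C and 8C the members stayed low in KD and in NC pools. Isg15, Ifit1, Ifit3 and Tlr3 were listed at 0 in all 28 of these pools. Ifih1 was above 0 in 13 of 18 KD pools at 8C (median 0.144 FPKM) and in 3 of 6 NC pools at 8C (median 0.0497 FPKM). Eif2ak2 was above 0 in 5 of 18 KD pools and in 0 of 6 NC pools at 8C, with a highest value of 0.460 FPKM. Ddx58 had a median of 0.611 FPKM in the KD pools (0.0712 to 1.87 FPKM) and of 0.595 FPKM in the NC pools (0 to 1.47 FPKM). For Ddx58, the estimates over 10 comparisons lay between -0.69 and 0.69 with standard errors of 0.43 to 0.50. For Irf7 they lay between -1.20 and 0.76 with standard errors of 0.55 to 0.63.

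With 2 pools on each side, KD and NC pools did not overlap for 24.4% to 47.8% of all genes with a mean of at least 1 FPKM. Of the genes below that mean but above 0 in a pool, 15.7% to 24.3% did not overlap. Order alone therefore carries little weight. Where members did not overlap, the lower share is the one for Ifih1, Eif2ak2 and Irf7 in 8C 4KD. It is also the one for Oas1a outside the 3KD pools without Nr1h3 siRNA. For Ddx58, both KD pools lay above both NC pools in 2 of the 10 comparisons at 4C and 8C and below them in 3. For Irf7 these numbers were 1 and 2, for Oas1a 3 and 1, for Ifih1 2 and 0 and for Eif2ak2 2 and 0. The directions thus differed between experiments for Ddx58, Irf7 and Oas1a.

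Irf7 and Oas1a had the lowest p of the members in these pools. Irf7 was listed at 0 in both 4C 4KD pools and both 8C 4KD pools, while the NC pools were at 0.277 and 3.15 FPKM at 4C and at 1.04 and 0.338 FPKM at 8C. The adjusted p was 0.891 at 4C and 0.884 at 8C, and Irf7 passed the filter of this experiment through the 4C NC pools alone. After Nr2c2 siRNA alone Irf7 was instead above NC in both pools, at 1.44 and 1.13 FPKM against 0.517 and 1.08 FPKM (difference 0.36, SE 0.55, adjusted p 0.941). Oas1a was at 1.69 and 0.389 FPKM in 3KD pools without Nr1h3 siRNA against 0.0893 and 0 FPKM in NC (difference 0.89, SE 0.44, adjusted p 0.762). It passed the filter of the 3KD experiment through those KD pools alone. Oas1a was also at 1.15 and 0.702 FPKM in the 8C 4KD pools and listed at 0 in both of their NC pools, but no group mean of this experiment reached 1 FPKM, and without a filter on low values its adjusted p was 0.677.

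In the 8C Nr5a2 KD pools, where the most genes were called, 3 members did not overlap with NC, in both directions. Of the genes below a mean of 1 FPKM but above 0 in a pool, as these 3 were, 24.3% did not overlap there, beside 47.8% of the genes at 1 FPKM or more. Ifih1 was at 0.892 and 0.444 FPKM against 0 and 0.315 FPKM in NC. Eif2ak2 was at 0.0825 and 0.460 FPKM and listed at 0 in both NC pools. Oas1a was listed at 0 in both KD pools and was at 1.43 and 0.167 FPKM in NC. None of the 3 reached a mean of 1 FPKM, and without a filter on low values their adjusted p were 0.629, 0.341 and 0.409. Ddx58 was at 1.43 and 1.40 FPKM against 1.47 and 0.573 FPKM (difference 0.29, SE 0.43, adjusted p 0.786).

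At 2C the pools with Nr5a2 siRNA stood apart from NC for Isg15. It was at 19.7 and 10.9 FPKM in the 2 KD pools and at 0 and 0.872 FPKM in the 2 NC pools. Both KD pools lay above both NC pools, and 1 of them lay above every other library of the series. The difference was 3.52 (SE 0.55, 95% interval 2.21 to 4.82), and Isg15 ranked 5th of 11958 genes by p in limma. Its adjusted p was 0.890 and it was not called. Isg15 had an NC mean of 0.436 FPKM and passed the filter on low values through the KD pools alone. Its rank can therefore not be set against that of the other genes. Without the filter its adjusted p was 0.869. Leaving out 1 pool at a time kept the difference between 3.07 and 3.97 with adjusted p of 0.385 to 0.780, where the lone pool of a group is assumed to vary like the pools of the other group. The library number of NC replicate 1 belongs to another series than those of the other 3 pools, and without it the difference was 3.07. Single 2C embryos without siRNA ranged from 0 to 15.5 FPKM for Isg15, with a median of 1.03 FPKM. Those are values of single embryos and the KD and NC values are of pools, so the spread of one does not give that of the other. Cumulus and oviduct markers summed to 1.91 and 4.99 FPKM in the NC pools and to 4.62 and 6.96 FPKM in the KD pools, and immune cell markers to 3.28 and 3.33 against 5.07 and 6.61 FPKM. Their part in the Isg15 values was not tested.

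Of the other members at 2C, Ddx58 was the only one whose pools did not overlap, among 35.6% of all genes for which this was so. It was at 2.90 and 2.28 FPKM in the KD pools against 0.475 and 1.34 FPKM in NC (difference 0.95, SE 0.51, adjusted p 0.890). With an NC mean of 0.907 FPKM, Ddx58 too passed the filter through the KD pools alone. Irf7 was at 8.58 and 21.6 FPKM against 9.23 and 8.40 FPKM, with KD pools on both sides of NC (difference 0.58, SE 0.52, adjusted p 0.898). Tlr3 was at 0.0727 and 0.544 FPKM against 0.820 and 0.515 FPKM, and Oas1a was at 0 and 1.26 FPKM against 0.512 and 0.129 FPKM. Eif2ak2 was at 0.0728 and 0.363 FPKM against 0.273 and 0 FPKM. Ifit1, Ifit3 and Ifih1 were listed at 0 in all 4 pools.

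**Figure D2:**
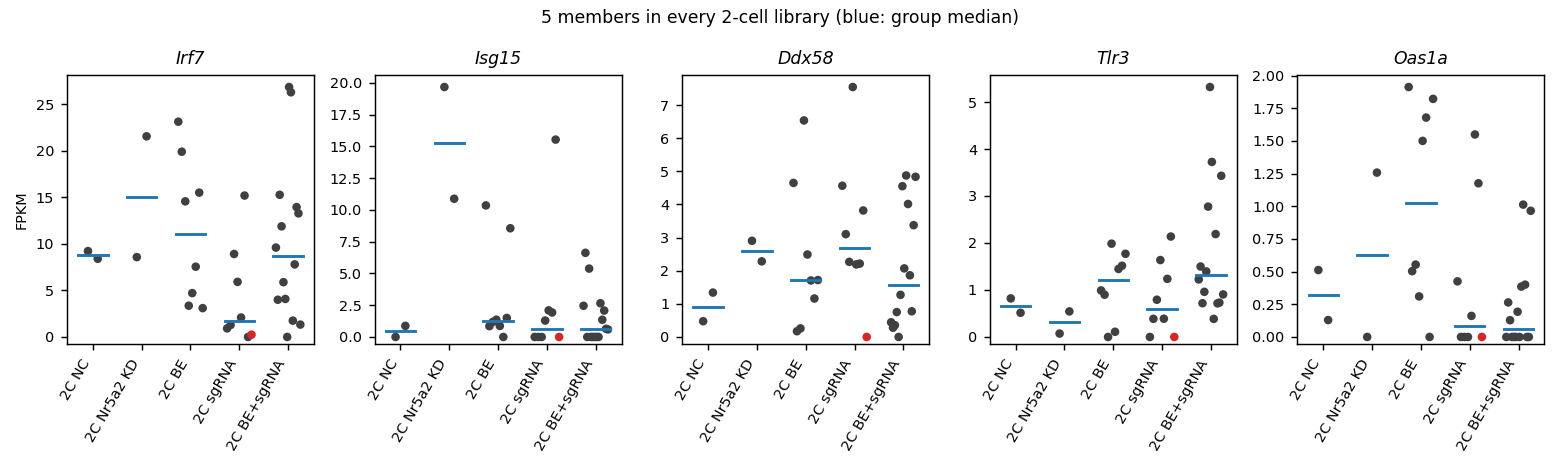
FPKM of 5 members (panels) in each 2C library, by group on the horizontal axis, with a blue line for the group median and red for the library with a 4-cell column name. Isg15 is at 10.9 and 19.7 FPKM in the 2 Nr5a2 KD pools, and single embryos of one group differ by as much as 0 to 26.9 FPKM for Irf7.

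The dose of NC siRNA differed between the experiments at 8C and was not tested, since dose and experiment cannot be told apart. Ddx58 was at 1.47 and 0.573 FPKM with 5 µM, at 0.618 and 0.109 FPKM with 15 µM and at 0 and 0.870 FPKM with 20 µM. Irf7 was at 0.517 and 1.08 FPKM, at 1.74 and 0 FPKM and at 1.04 and 0.338 FPKM at these doses. Oas1a was at 1.43 and 0.167 FPKM, at 0.0893 and 0 FPKM and at 0 in both pools. Isg15, Ifit1, Ifit3, Tlr3 and Eif2ak2 were listed at 0 in all 6 NC pools.

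Editor mRNA and guide RNA were compared in single embryos. At 2C, Irf7 had a lowest value of 3.10, a median of 11.1 and a highest value of 23.1 FPKM in BE embryos, and 0, 1.69 and 15.2 FPKM in sgRNA embryos. The groups overlapped, and the difference, BE minus sgRNA, was 1.57 (SE 0.62, 95% interval 0.32 to 2.82) with an adjusted p of 0.580. Of the 5 members tested in limma at 2C 0 were called, of 12420 genes 0% were called, and 1 member and 984 genes had an unadjusted p under 0.05. Libraries were grouped into an eBE and a BE4 run by the editor in the column name. Where a name held no editor, the library was placed by its library number, so the runs are partly inferred. Within the eBE run the Irf7 difference was 1.78 (adjusted p 0.229), and without the library with a 4-cell name it was 1.36 (adjusted p 0.723). The BE4 run holds no sgRNA embryo at 2C, so it gave no value. The median of all genes was itself 0.27 higher in BE embryos.

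The other members overlapped widely between BE and sgRNA embryos at 2C. Isg15 had medians of 1.28 and 0.646 FPKM and was above 0 in 7 of 8 and 4 of 8 embryos (difference 0.48, SE 0.56, adjusted p 0.815). Ddx58 had medians of 1.71 and 2.69 FPKM (difference -0.40, SE 0.44, adjusted p 0.803). Tlr3 had medians of 1.22 and 0.590 FPKM (difference 0.22, SE 0.33, adjusted p 0.858). Oas1a had medians of 1.03 and 0.0805 FPKM (difference 0.52, SE 0.26, adjusted p 0.623). Ifih1 was listed at 0 in all 8 BE embryos and was above 0 in 5 of 8 sgRNA embryos with a highest value of 0.310 FPKM, and without a filter on low values its adjusted p was 0.549. Eif2ak2 was above 0 in 6 of 8 embryos of each group.

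Embryos that had received both RNAs were then set against those with 1 of them. At 2C, 0 of 5 members were called against the mean of both controls in limma, where 0.00805% of the 12420 genes, 1 gene, were called. An unadjusted p under 0.05 was found for 2 of the 5 members and for 1444 of all genes. Without the library with a 4-cell name 7 genes and 0 members were called. Tlr3 had a lowest value of 0.385, a median of 1.31 and a highest value of 5.32 FPKM in the 14 BE+sgRNA embryos, with all 14 above 0 (difference 0.51, SE 0.24, adjusted p 0.411). Oas1a had a median of 0.0641 FPKM and was above 0 in 7 of 14 embryos (difference -0.40, SE 0.19, adjusted p 0.418). Irf7 had a median of 8.70 FPKM (difference 0.42, SE 0.45, adjusted p 0.737), Isg15 of 0.618 FPKM (difference -0.33, SE 0.41, adjusted p 0.777) and Ddx58 of 1.57 FPKM (difference -0.29, SE 0.32, adjusted p 0.747). Against the BE group alone the Irf7 difference was -0.37. Within the eBE run the Ddx58 difference was 0.17.

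At 8C no member reached a mean of 1 FPKM in a single-embryo group, so 0 members entered the main tests, and limma called 0% of 9760 genes between BE and sgRNA and 0.164%, or 16 genes, between BE+sgRNA and the controls. Of the latter comparison 0 genes were called without the libraries with a 4-cell name and 0 with run as a term, and 87 once the library whose FPKM added up to least was left out. Without a filter on low values, 0 of the 8 members listed above 0 in at least 1 embryo at 8C were called in either comparison, with adjusted p of 0.803 or more and 0.6997 or more. Ddx58 had medians of 0.158 FPKM (BE), 0.165 FPKM (sgRNA) and 0.264 FPKM (BE+sgRNA), with a highest value of 2.92 FPKM in 1 BE+sgRNA embryo. Irf7 had medians of 0, 0.107 and 0.443 FPKM and was above 0 in 3 of 8, 4 of 8 and 8 of 14 embryos. Isg15 was listed at 0 in 28 of 30 embryos, and the 2 exceptions, at 1.21 and 1.59 FPKM, were the BE+sgRNA libraries with a 4-cell column name. One of these libraries also had the highest Irf7 value at 8C, 3.95 FPKM. Without them Isg15 was listed at 0 in every single embryo at 8C.

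**Figure D3:**
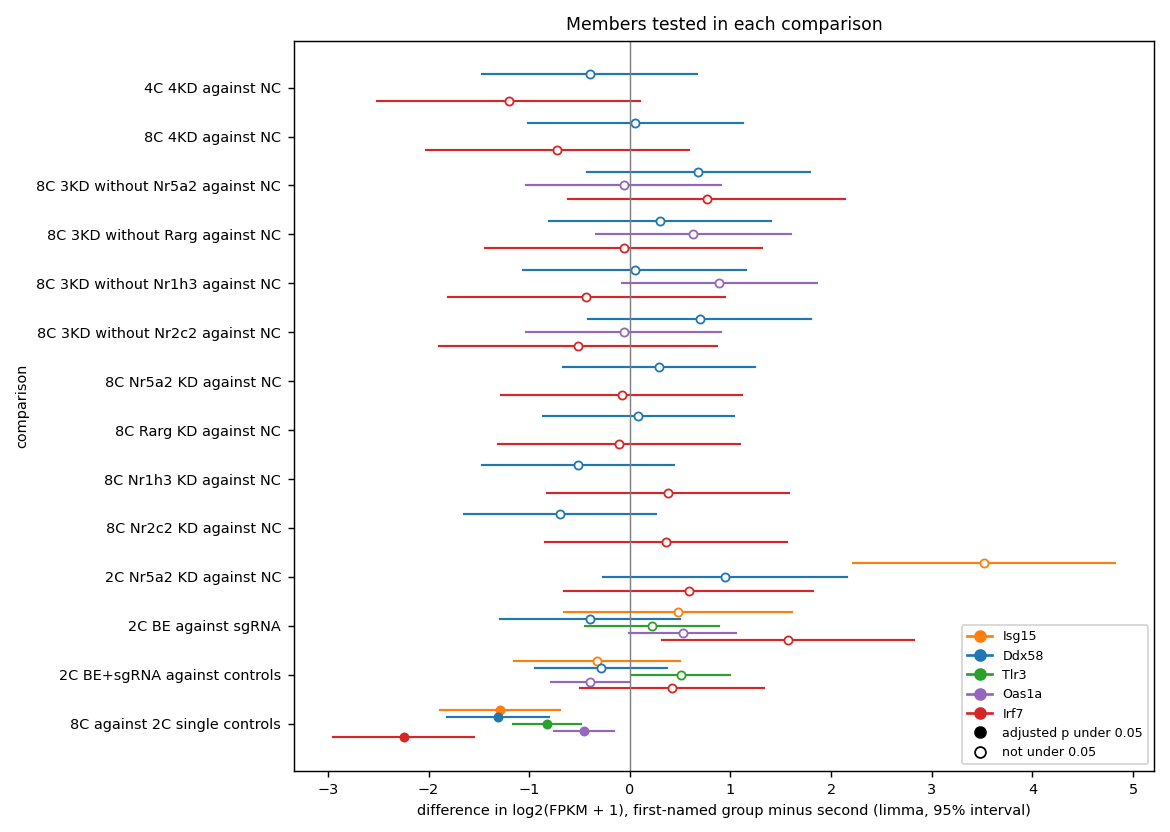
Difference in log2(FPKM + 1) with its 95% interval from limma (horizontal axis) for the members tested in 14 comparisons (vertical axis), with filled points at an adjusted p under 0.05. Filled points appear in the comparison of 8C with 2C embryos and nowhere else, and Isg15 in 2C Nr5a2 KD is the farthest from 0 at 3.52.

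The effect of the editor was also compared between stages in the fit of all 60 embryos. The difference between BE and sgRNA changed from 2C to 8C for 0 of 5 members in limma, where 0% of 12991 genes were called. An unadjusted p under 0.05 was found for 1 member and for 401 of all genes. For Irf7 this change was -1.80 (SE 0.70, adjusted p 1.00). The 5 members had passed the filter through their 2C groups, and with levels near 0 at 8C each change largely restates the difference at 2C, so these estimates carry no separate information on 8C. The difference between BE+sgRNA and controls changed with stage for 0 of 5 members, against 0.0385% of all genes (5 genes, and 15 without the libraries with a 4-cell name). In this comparison 0 of the 5 members and 1258 of all genes had an unadjusted p under 0.05. The largest estimate there was that of Ddx58, at 0.55 (SE 0.37, adjusted p 0.659).

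The pathway genes around the members were then followed over the same stages. The pathway lists held 75 genes, 15 sensors and adaptors, 17 genes of interferon signalling and 43 other induced genes. Of these, 52 passed the filter in the fit of all 60 single embryos. Between stages 31 were lower and 6 were higher at 8C, in a comparison that called 43.6% of all genes lower and 28.9% higher. Of the 31, 16 had a mean under 1 FPKM in each single-embryo group at 8C and so entered through 2C alone, and the counts and medians of these lists cannot be set against those of all genes. The median differences were -0.83 for sensors and adaptors, -0.47 for interferon signalling and -1.01 for other induced genes. Among the lower ones were Oas1d (91.8 FPKM at 2C and 0.963 FPKM at 8C), Irf1, a transcription factor of the interferon response (22.4 and 0.136 FPKM), Oas1c (23.5 and 0.581 FPKM), Parp12 (29.6 and 0.747 FPKM) and Oas1e (19.7 and 0.781 FPKM), all as means of 16 embryos. Ifitm2, which blocks the entry of viruses at membranes, was higher at 8C (12.7 FPKM at 2C and 76.7 FPKM at 8C). Oas1c and Oas1d are relatives of Oas1a known from the ovary. The 5 named as lower had adjusted p of 4.47e-17 for Irf1, 1.71e-20 for Oas1d, 2.64e-18 for Oas1c, 5.95e-17 for Parp12 and 1.11e-14 for Oas1e, and Ifitm2 had 2.44e-05. The interferon genes Ifnb1 and Ifna4 and the sensor Tlr7 were listed at 0 in all 92 libraries, and the induced genes Ifit2, Rsad2, Mx1 and Mx2 had no group mean above 0.462 FPKM. Other induced genes went higher, with highest group means of 15.5 FPKM for Cxcl10 (2C sgRNA), 7.54 FPKM for Igtp (2C Nr5a2 KD), 3.68 FPKM for Usp18 (2C BE) and 3.64 FPKM for Cmpk2 (2C NC). These 11 genes were named after their values were seen.

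**Figure D4:**
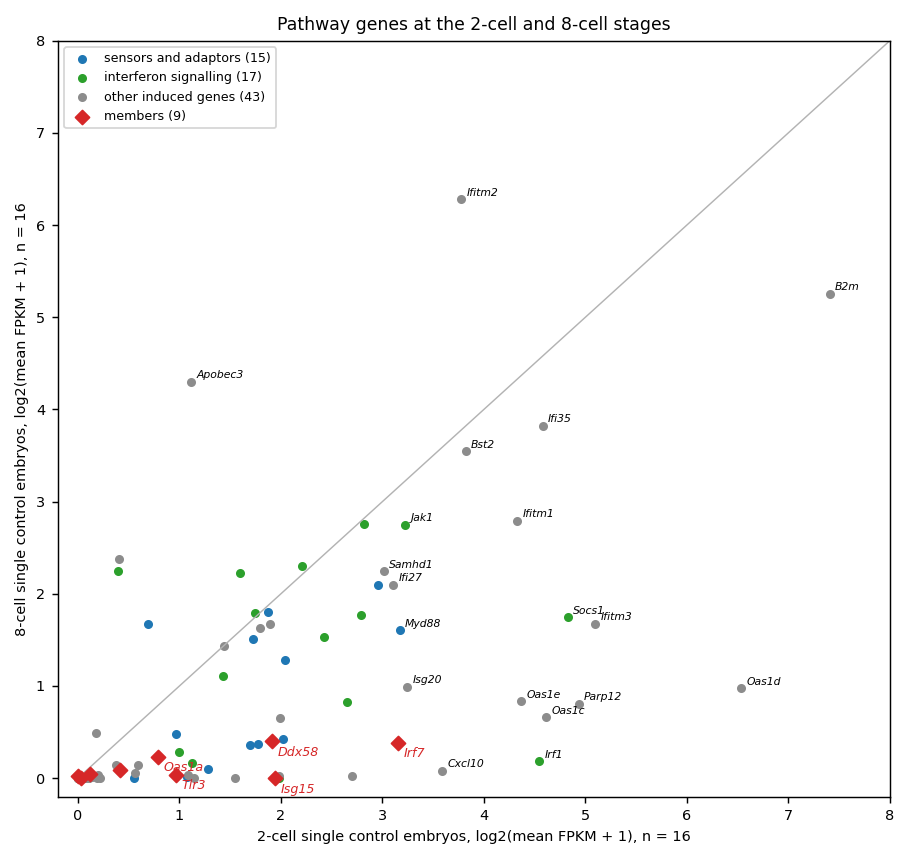
Each point is a gene, with log2(mean FPKM + 1) of the 16 single control embryos at 2C (horizontal axis) and at 8C (vertical axis), coloured by list, with the members as red diamonds and the line of equality in grey. Irf7, Isg15, Ddx58 and Tlr3 lie below the line with most of the pathway genes, and Ifitm2 and Apobec3 lie above it.

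The genes that act downstream of PKR and those that load siRNA were examined beside Eif2ak2. The comparison of stages called 43.6% of all genes lower and 28.9% higher at 8C, and the counts of both lists stand beside that. Of 6 genes of the PKR stress output, 4 were lower at 8C than at 2C and 1 was higher. Ddit3, a stress-induced transcription factor, was at 54.1 and 6.46 FPKM (difference -2.94, SE 0.44, adjusted p 3.34e-08). Eif2s1, which encodes the subunit that PKR phosphorylates, was higher at 8C (38.8 and 94.9 FPKM, difference 1.49, SE 0.37, adjusted p 0.000374). Of 8 genes of the siRNA machinery 5 were higher and 2 were lower at 8C, with Ago2, the Argonaute that cuts the target, at 4.03 and 20.3 FPKM (difference 2.28, SE 0.27, adjusted p 7.19e-11) and Xpo5, which exports microRNA precursors from the nucleus, at 3.50 and 19.5 FPKM (difference 2.25, SE 0.28, adjusted p 2.72e-10). None of these 14 genes was called in an siRNA or editor comparison in limma. All 6 PKR output genes were higher in BE than in sgRNA embryos at 2C (median difference 1.02, 0.27 over all genes). At 8C all 5 tested were (0.76 and 0.31). In BE+sgRNA embryos against the controls, 5 of 6 were higher at 2C and 2 of 5 at 8C. Of 5 tested, 5 were higher in 4C 4KD, in 8C 4KD and in the 3KD groups without Nr5a2, Rarg or Nr2c2 siRNA. In the 3KD group without Nr1h3 siRNA 3 were. In the single KD groups at 8C, 3 were higher after Nr5a2, 1 after Rarg, 4 after Nr1h3 and 2 after Nr2c2 siRNA. The medians over all genes in these pools at 4C and 8C were -0.24 to 0.13. In 2C Nr5a2 KD, 5 of 6 were higher (median difference 0.48, 0.23 over all genes). The 8 siRNA machinery genes were all lower in 8C Nr5a2 KD (-0.69, -0.22 over all genes). In 8C Rarg KD 4 were lower, and 5 in each of 8C Nr1h3 KD and 8C Nr2c2 KD. In both 4KD groups 4 were lower, and 2 to 4 in the 3KD groups. The share of all genes in each direction was not counted. These directions were not tested.

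After siRNA injection, 0 of the pathway genes tested were called in 10 of the 11 comparisons, with 38 to 45 genes tested in each. With the replicate block 1 was called in 3KD pools without Nr2c2 siRNA, B2m, the light chain of MHC class I (difference 1.88, SE 0.35, adjusted p 0.0366, and 0.281 without the block). The exception was Nr5a2 KD at 8C, where 2 were higher and 1 was lower out of 38 tested, beside 2.75% of all genes. Ifitm2 was at 414 and 443 FPKM in the KD pools against 47.2 and 109.8 FPKM in NC (difference 2.55, SE 0.39, adjusted p 0.00661). The other single KD pools were at 168 to 221 FPKM and also above both of these NC pools (differences 1.35 to 1.44, adjusted p 0.845 to 1.00), and the 8C NC pools of the 3KD and 4KD experiments were at 166 to 448 FPKM. Ifngr1, a subunit of the interferon gamma receptor, was at 25.7 and 10.6 FPKM against 0.842 and 2.06 FPKM (difference 2.89, SE 0.58, adjusted p 0.0246). After Nr1h3 siRNA Ifngr1 was at 6.88 and 8.71 FPKM, also above both of these NC pools (difference 1.88, not called). After Rarg and after Nr2c2 siRNA it overlapped with them. The 8C NC pools of the 3KD and 4KD experiments were at 2.12 to 6.01 FPKM, and the 4C NC pools at 18.4 and 7.76 FPKM. Apobec3, a cytidine deaminase that restricts retroviruses, was at 6.18 and 2.25 FPKM against 15.3 and 30.6 FPKM (difference -2.23, SE 0.52, adjusted p 0.0454). The pools with KD and NC did not overlap for these 3 genes. The number depended on single pools, with 0 genes called without NC replicate 1, 1 without NC replicate 2, 1 without KD replicate 2 and 5 when the other KD groups were left out of the fit. Apobec3 was at 4.82 and 2.99 FPKM in 8C 4KD pools against 16.4 and 24.9 FPKM in NC, and in 3KD pools it was at 21.9 and 21.8 FPKM where Nr5a2 siRNA was left out and between 1.96 and 6.49 FPKM in the 3 groups that had received it, against 9.54 and 16.4 FPKM in NC. None of these 4KD and 3KD differences was called, with adjusted p from 0.339 to 1. At 2C, of 45 pathway genes tested after Nr5a2 siRNA, 28 had a difference above 0 and 17 below, with list medians of 0.13 for sensors and adaptors, 0.07 for interferon signalling and 0.42 for other induced genes, where the median of all genes was 0.23. B2m was at 285 and 302 FPKM in the KD pools against 303 and 99.9 FPKM in NC, and Ifi35, which interferon induces, was at 83.2 and 96.5 FPKM against 38.4 and 64.3 FPKM. Of the 71 pathway genes above 0 in a library, 49 had their highest group mean in a 2C group, 15 of them in 2C Nr5a2 KD. The share over all genes was not counted, so these counts are not results about the pathway. Genes at 1 FPKM or more numbered 7620 to 11921 in 2C libraries and 5472 to 9526 in 8C libraries. Of 11958 genes with a mean of at least 1 FPKM, 3270 had both 2C Nr5a2 KD pools above both NC pools and 990 below. In the editor comparisons 0 pathway genes were called, with 49 tested at 2C and 35 at 8C.

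The genes whose group means followed those of a member most closely were sought among 14007 genes over the 22 groups. For Isg15 they were Try4 (Pearson r 0.99) and Rab37 (0.99), for Tlr3 Sptssb (0.99) and Lama2 (0.99), for Irf7 Gm12794 (0.97) and Gm13083 (0.95), for Ddx58 Ttc9 (0.89) and Glt8d2 (0.84), and for Oas1a Eefsec (0.71) and Npr1 (0.68). The groups share stages and experiments, and a gene that was high at 2C and near 0 elsewhere has a high value by that alone, so these are descriptions.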

How the data were processed

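Single embryos and pools were sequenced by Smart-seq2. The authors mapped the reads to mm9 with TopHat and computed the deposited FPKM values per gene with Cufflinks, so the depth is unknown. Of 113 samples, 92 had FPKM and the other 21 (chromatin assays) were not used. Values were tested as log2(FPKM + 1) with limma 3.58.1 in R 4.3.3, with a trend in eBayes and Benjamini-Hochberg adjustment over all genes with a mean of at least 1 FPKM in a group of the fit. Genes under an adjusted p of 0.05 are named as called. The pools of an experiment, and the single embryos of a stage, were fitted together, and the embryos of both stages for comparisons of stages. All tests were two-sided. The study calls the libraries of a group biological replicates, and the labels do not say whether pools came from separate matings, so p-values measure the spread between these samples. The test was checked on simulated data.

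All 9 members are reported in each group. From the pathway lists, at most 6 called genes with the largest difference are named per comparison. The 2 genes most like each member that reached 1 FPKM are named too. Other named genes, among them those of the PKR stress output and the siRNA machinery, were not picked by this rule. The members and lists were chosen with earlier results of these data known. Promoters came from RefSeq (GRCm38.p6) and gene positions from the mm9 annotation. Alternatives were another pseudocount, filters, scalings, eBayes without trend, the limits of the study's methods, a replicate block, fewer groups, runs or controls, and leaving out libraries. Crossed replicate numbers in the 4KD experiment were added after seeing the data.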

Additional observations from a re-analysis of the deposited data

Results flagged for a closer look

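In groups of 8 single embryos, 27 sets of member values were examined for a highest or lowest embryo that stood apart, by a gap of more than 0.526 of the range (Dixon's test at the 95% level), and 10 were marked, while chance alone marks about 1 in 20. Most of these sets hold values near 0, where 1 embryo above 0 is enough. The clearest was Isg15 at 15.5 FPKM in 2C sgRNA replicate 7, where the next embryo was at 2.09 FPKM. Eif2ak2 was at 1.25 FPKM in 2C sgRNA replicate 4 (next 0.541 FPKM), and Irf7 was at 0.962 FPKM in 8C BE replicate 4 (next 0.280 FPKM). Oas1a was at 0.336 FPKM in 8C sgRNA replicate 1, Ifit1 at 0.276 FPKM in 2C sgRNA replicate 5 and Ifih1 at 0.246 FPKM in 8C BE replicate 3. The only embryo of its group above 0 was 8C sgRNA replicate 7 for Ifit3 (0.309 FPKM) and for Tlr3 (0.0870 FPKM), 8C sgRNA replicate 6 for Ifih1 (0.139 FPKM) and 8C BE replicate 1 for Eif2ak2 (0.0671 FPKM).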

How the results depend on the processing

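No member was called in the siRNA, editor and 8C against 4C comparisons under any of the alternatives run, including each pool left out in turn (0 to 0 members called). For 8C against 2C single controls, 5 members were called in the main fit, 3 with quantile normalization, 1 with a mean of at least 5 FPKM, where 1 member was tested, and 1 under the methods' limits. Quantile normalization gave Oas1a 0.0086 and Tlr3 -0.38. Leaving out a pool moved the Irf7 difference in 2C Nr5a2 KD between -0.0339 (without KD replicate 2) and 1.202. Signs also turned for Tlr3 at 2C, BE against sgRNA, with run as a term (-0.0517), for Ddx58 at 2C, BE+sgRNA within the eBE run (0.17), for Irf7 at 2C, BE+sgRNA against BE alone (-0.37), and for the stage difference of BE+sgRNA for Irf7 with a pseudocount of 0.1 (0.32). The causes were not tested. In the 4C and 8C pools, 11 of 24 member estimates changed sign under at least 1 alternative, 2 of them other than by leaving out a library. Levels under 1 FPKM, and 2 pools per group, limit what could be detected.

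With the replicate block, 0 members were called in the 12 pool comparisons, as without it. Over all genes the calls rose to 45, 35 and 65 in the 3KD groups without Rarg, Nr1h3 and Nr2c2 siRNA (6, 1 and 0 without the block) and were 278 and 279 in 8C Nr5a2 KD. Deviations of same-numbered pools correlated at 0.30 to 0.54 in the 3KD, -0.04 to 0.15 in the 1KD and -0.32 to 0.38 in the 4KD experiment and at 0.0050 at 2C, and no label says what a number shares. Crossing the numbers between 4C and 8C NC also gave 0 called members. With the block, Isg15 in 2C Nr5a2 KD had an adjusted p of 0.367. No paired analysis was possible for single embryos because their numbers only name them. Values within the BE4 run at 2C were not run where it holds no sgRNA embryo.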
